A study of Mus musculus with 22 samples.

Results

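The 10 genes described here encode proteins of the brain extracellular matrix, and most of them build perineuronal nets. They are the tenascins Tnr and Tnc, the lecticans Acan, Bcan, Ncan and Vcan, the link proteins Hapln1 and Hapln4, and the matricellular proteins Sparc and Sparcl1. They were picked by symbol, and all 10 are among the 24421 genes counted in both sexes. The set was named with earlier results of these counts in view, and Tnr was chosen by its measured difference between dominant and submissive females. The rank differences in females are therefore a description, and nothing is drawn from the number of members called in that contrast.

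A perineuronal net is a lattice of matrix around the cell body and proximal dendrites of certain neurons, above all fast-spiking interneurons that express parvalbumin. Lecticans are chondroitin sulfate proteoglycans that bind hyaluronan, link proteins fasten this bond, and the trimeric tenascin-R cross-links the lecticans at their other end. In the adult brain nets restrict synaptic plasticity, while Sparcl1 (hevin) and Sparc are secreted mainly by glia and act in opposite directions on the formation of excitatory synapses.

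Total RNA of the right brain hemisphere was sequenced from C57BL/6JOlaHsd mice, an inbred strain. The groups were 7 dominant males, 7 submissive males, 4 dominant females and 4 submissive females. The labels name no treatment, and the mice were housed with 4 mice per cage, ranked at 10 to 12 weeks of age by the tube test (a contest over passage through a tube) and killed 3 to 4 days after ranking. Each cage gave its dominant and its submissive mouse, and library names show that samples with the same replicate number are cage mates. Instead of a cage number, the names Gr1 and Gr2 stand there for female replicates 3 and 4. Per the methods, females first ranked as intermediate were regrouped and ranked again a week later; whether Gr1 and Gr2 are such groups is not given in the sources used here, so their ranking history may differ from that of the other females. Library numbers follow the cages, so cage and library order cannot be told apart. The males and the females are in separate tables and their libraries have separate series names, so sex, table and sequencing series cannot be told apart either.

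Between 12403943 and 16488762 reads per sample were counted on genes, and expression is given as CPM, that is counts divided by library sizes that carry TMM factors from all 22 samples. Markers of neurons, astrocytes and oligodendrocytes were found in every library. The 6 cerebellar markers summed to 30.0 CPM in dominant male 1, and Pcp2, which marks Purkinje cells, had 0 counts there, a count that allows up to 0.213 CPM. In the other males these markers summed to between 482 and 907 CPM, and in the females to between 657 and 1114 CPM. Submissive female 3 had 22.9 CPM of 6 pituitary markers, led by the hormone gene Prl at 11.8 CPM, against at most 3.62 CPM in the other libraries. Results for the matrix genes that changed their call without these libraries are named below. In a hemisphere homogenate, fewer cells of a type and less RNA per cell cannot be told apart.

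The coordinates are those of mm10 as deposited, and no exon base of the 10 genes is shared with another gene of the count tables. Tnr lies at chr1:159523769-159924922 on the plus strand, Tnc at chr4:63959785-64047015 on the minus strand, Acan at chr7:79053483-79115099 on the plus strand and Bcan at chr3:87987531-88000356 on the minus strand. Ncan (chr8:70093085-70120844, minus strand) starts beyond the end of Hapln4 (chr8:70083529-70090862, plus strand), with 2222 bases between them. Hapln1 (chr13:89540636-89611832, plus strand) and Vcan (chr13:89655310-89742512, minus strand) are 43477 bases apart. Sparc lies at chr11:55394159-55420080 and Sparcl1 at chr5:104079109-104114088, both on the minus strand. The counted exons of Tnr cover 5395 bases, whereas GENCODE vM21 gives the gene 12867 exon bases and an end at 159931729, so reads from the last part of its messenger RNA were not counted.

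Promoter sequence from RefSeq (GRCm38.p6) was matched for 8 of the 10 genes. The 250 bases before the RefSeq start are shown for the 4 genes that differed most between the tables, all lower in females. For Acan that start lies 257 bases from the counted start given above. Tnc has another RefSeq start 79 bases away, whose window, with 10 CpG, is not shown. Capitals mark the CpG dinucleotides. Tnr (chr1:159523519-159523768, plus strand) holds 2 of them, Tnc (chr4:64047016-64047265, minus strand) 8, Vcan (chr13:89742513-89742762, minus strand) 10 and Acan (chr7:79052976-79053225, plus strand) 26.
Tnr: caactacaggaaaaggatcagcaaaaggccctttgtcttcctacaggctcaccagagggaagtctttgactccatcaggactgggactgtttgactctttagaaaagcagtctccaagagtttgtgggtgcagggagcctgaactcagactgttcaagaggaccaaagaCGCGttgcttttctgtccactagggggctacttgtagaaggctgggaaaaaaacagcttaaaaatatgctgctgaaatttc
Tnc: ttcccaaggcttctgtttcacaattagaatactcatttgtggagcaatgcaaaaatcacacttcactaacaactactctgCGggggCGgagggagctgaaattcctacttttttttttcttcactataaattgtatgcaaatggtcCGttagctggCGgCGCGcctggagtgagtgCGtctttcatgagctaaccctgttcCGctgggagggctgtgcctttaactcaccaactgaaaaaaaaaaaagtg
Vcan: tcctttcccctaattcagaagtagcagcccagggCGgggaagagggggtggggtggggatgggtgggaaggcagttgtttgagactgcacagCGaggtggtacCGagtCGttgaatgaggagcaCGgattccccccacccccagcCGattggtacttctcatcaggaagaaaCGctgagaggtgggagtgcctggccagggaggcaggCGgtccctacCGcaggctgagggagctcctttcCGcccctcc
Acan: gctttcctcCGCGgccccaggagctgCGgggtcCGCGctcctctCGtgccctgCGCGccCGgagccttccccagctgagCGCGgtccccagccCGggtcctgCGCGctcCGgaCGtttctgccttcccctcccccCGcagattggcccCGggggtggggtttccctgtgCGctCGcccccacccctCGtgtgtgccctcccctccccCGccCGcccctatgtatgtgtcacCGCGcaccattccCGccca
The median of 32536 RefSeq promoters was 6 CpG in this window, and their quartiles were 2 and 16. The 4 promoters therefore ran from the lower quartile to above the upper one. The GC box GGGCGG, read on either strand and with overlaps allowed, was present 3 times in Acan, 2 times in Vcan and 1 time in Tnc, with no match in Tnr; 33.0% of all promoters hold it. The TATA box TATAAA matched 1 time in Tnc and in none of the others shown, against 12.3% of all promoters. Neither the AP-1 site TGANTCA (6.73% of promoters) nor the E-box CACGTG (6.04%) matched in any of the 8 genes. These are matches of letters only.

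The levels of the genes were compared per exon length, as RPKM (CPM per kilobase of counted exons). Sparcl1 stood highest, with 828 ± 41.4 RPKM (SD, n = 22), and on average made up 77.4% of the summed RPKM of the 10 genes. Sparc followed at 131 ± 14.3 RPKM and Bcan at 34.4 ± 1.93 RPKM. Tnr had 23.8 ± 4.45, Ncan 20.2 ± 1.98, Hapln4 17.1 ± 1.74 and Hapln1 6.71 ± 0.451 RPKM. Vcan had 3.98 ± 0.684, Tnc 2.55 ± 0.456 and Acan, the large aggrecan of mature nets, 0.984 ± 0.168 RPKM. Most neighbours in this order kept their places in all 22 samples. The exceptions were Tnr, which lay above Ncan in 21 of 22 samples, and Ncan, which lay above Hapln4 in all 14 males but in 6 of 8 females. The same Tnr counts divided by the GENCODE exon length, which includes bases where reads were not counted, came to 9.98 RPKM, position 6 in place of 4. Acan rested on 77 to 128 reads per sample and Sparcl1 on 29916 to 45529, so the counting error was largest for Acan. Over all 22 samples the CV was 17.1% for Acan, 17.2% for Vcan, 17.9% for Tnc and 18.7% for Tnr.

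**Figure D1:**
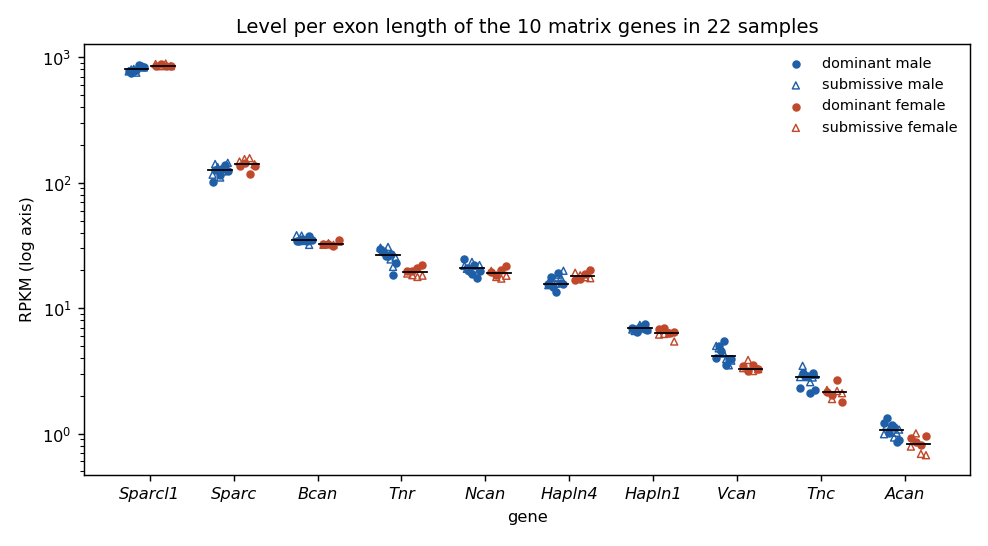
RPKM (log axis) of each gene in each of the 22 samples, with dominant mice as filled circles, submissive mice as open triangles, males in blue and females in red; the black line is the median of each sex. Sparcl1 lies at 754 to 892 RPKM and Acan at 0.673 to 1.32 RPKM, and the Tnr, Tnc, Vcan and Acan points of the females sit low against those of the males.

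The question of the table comparison is whether the genes differed between the female and the male libraries, whatever the source of that difference. The tenascins, all 4 lecticans and Hapln1 were lower in the females, and Sparc and Sparcl1 were higher. The quasi-likelihood test of edgeR, with p-values adjusted by Benjamini-Hochberg, called 9 of the 10 genes at an adjusted p under 0.05, 2 of them higher and 7 lower. Of all 15233 genes tested, 36.2% were called, 18.4% higher and 17.8% lower, so calls were common in this contrast. That fit takes each mouse as a separate sample although cage mates share a cage. With the counts of cage mates summed, so that 7 male cages were set against 4 female cages (an alternative chosen after seeing the data), 7 of the 10 genes and 28.6% of all genes were called. Ncan (edgeR adjusted p = 0.0748) and Sparcl1 (edgeR adjusted p = 0.0517) were then not called, and every member kept its direction. The median log2 difference (females minus males) was -0.13 over the 10 genes and -0.00015 over all genes.

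Among the tenascins, Tnr ranged from 99.97 to 166 CPM in the 14 males (median 144) and from 95.7 to 118 CPM in the 8 females (median 104). The ranges met through male cage 6 alone, where both mice lay below the highest female. The log2 difference was -0.44 (standard error 0.0676, edgeR adjusted p = 1.33e-05), a change of -26.2%. Tnc, which is abundant in development and made by astrocytes in the adult, had 14.99 to 24.6 CPM in males (median 20.2) and 12.7 to 19.0 CPM in females (median 15.1). Its log2 difference was -0.38 (standard error 0.0756, edgeR adjusted p = 0.000297), with overlapping ranges.

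Among the lecticans, Vcan (versican, a product of oligodendrocyte precursors and other cells) had 51.5 to 80.2 CPM in males (median 61.3) and 46.3 to 56.8 CPM in females (median 48.4), a log2 difference of -0.36 (standard error 0.0716, edgeR adjusted p = 0.000314). Acan had 6.29 to 9.71 CPM in males (median 7.93) and 4.95 to 7.39 CPM in females (median 6.11). Its log2 difference was -0.35 (standard error 0.0821, edgeR adjusted p = 0.00136). In both genes all 8 females lay below the male median, although the ranges overlapped. Bcan and Ncan, the lecticans that dominate the adult brain by level, differed by less. Bcan had a log2 difference of -0.11 (standard error 0.0301, edgeR adjusted p = 0.00526) and Ncan of -0.13 (standard error 0.0504, edgeR adjusted p = 0.0458). The call of Ncan was lost in 7 of the 22 fits that each left out 1 sample, with adjusted p-values of 0.0510 to 0.0771. The samples were dominant male 2, submissive male 7, dominant females 1 and 2, and submissive females 2, 3 and 4; without submissive female 3, the library with pituitary RNA, the adjusted p was 0.0703. Without an expression filter it was 0.0553.

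The link proteins went in opposite directions. Hapln1, the link protein of most nets, had 32.8 to 37.8 CPM in males (median 34.8) and 27.4 to 35.4 CPM in females (median 32.1), with a log2 difference of -0.12 (standard error 0.0351, edgeR adjusted p = 0.00681). Hapln4, which is best known from nets of the brainstem and cerebellum, had a log2 difference of 0.13 (standard error 0.0545, edgeR adjusted p = 0.0689) and was not called. It was called when dominant male 2, dominant male 5 or submissive male 7 was left out, with adjusted p-values of 0.0462, 0.0301 and 0.0286. Without dominant male 1, whose cerebellar RNA is missing, 9 of the genes were called, as in the full set. Sparc rose from a median of 334 CPM in males (268 to 381) to 376 CPM in females (309 to 415), a log2 difference of 0.17 (standard error 0.0512, edgeR adjusted p = 0.0108). Sparcl1 had 2348 to 2701 CPM in males and 2637 to 2779 CPM in females, and its log2 difference of 0.09 (standard error 0.0276, edgeR adjusted p = 0.00871) was the smallest of those called.

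**Figure D2:**
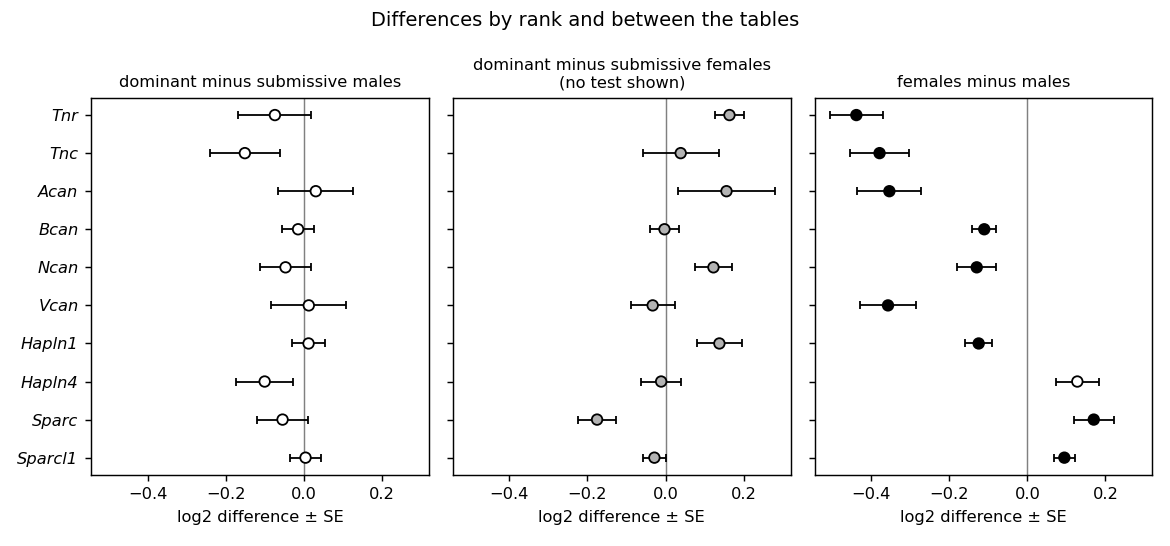
Log2 difference with its standard error for each gene, for dominant minus submissive males (left), dominant minus submissive females (middle) and females minus males (right). In the left and right panels black points have an adjusted p under 0.05 in edgeR's test and white points do not, with 0 of 10 black on the left and 9 of 10 on the right; the grey points of the middle panel show no test.

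Because the genes differ in length, the difference between the tables was computed again after removal, within each sample, of the loess trend of counts over exon length. The number of genes called fell from 9 to 6, against 35.4% of all genes. Vcan, with 14689 exon bases the longest of the set, moved most, from -0.36 to -0.11 (edgeR adjusted p = 0.0786). Ncan came to -0.04 (edgeR adjusted p = 0.542) and Hapln1 to -0.09 (edgeR adjusted p = 0.0527), and neither was called. Tnr kept its difference at -0.39 (edgeR adjusted p = 6.14e-06), and Tnc (-0.29), Acan (-0.26), Bcan (-0.12), Sparc (0.14) and Sparcl1 (0.08) were still called with their directions. Tnr was placed on the trend by its 5395 counted exon bases, whereas GENCODE gives it 12867. Whether its difference would stay at that length was not tested.

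**Figure D3:**
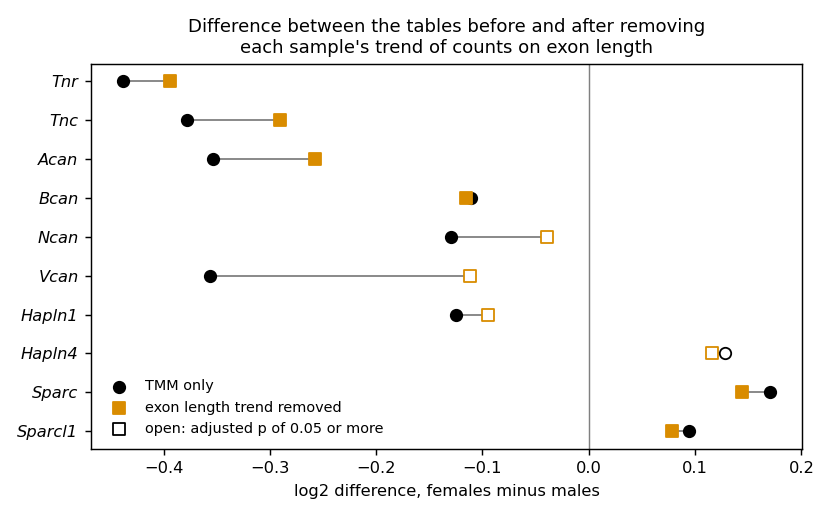
Log2 difference (females minus males) of each gene with TMM scaling only (circles) and after the loess trend over exon length was removed in each sample (squares); open symbols have an adjusted p of 0.05 or more. The Vcan point moves from -0.36 to -0.11, while Tnr, placed on the trend by its 5395 counted exon bases, stays between -0.44 and -0.39.

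Markers of other cell types were compared between the tables too, and 24 of 69 markers tested in 13 lists were called (34.8%, against 36.2% of all genes). The 5 neuron markers summed to 3317 to 3787 CPM in males and to 4005 to 4208 CPM in females. The 6 markers of oligodendrocyte precursors summed to 283 to 321 CPM in males and 250 to 279 CPM in females. Neither sum overlapped between the sexes, which was also so for 6.11% of 15233 single genes. Of the neuron markers 2 of 5 were called, both higher in females, and of the precursor markers 3 of 6, all lower. The 6 parvalbumin interneuron markers summed to 635 to 766 CPM in males and 745 to 825 CPM in females (2 of 6 called, both higher). The 6 astrocyte markers overlapped, at 2514 to 3218 and 2711 to 3085 CPM, with 2 of 6 called, both lower in females. The oligodendrocyte markers summed to 5123 to 6153 CPM in males and 4634 to 5558 CPM in females, and 3 of 6 were called, all lower, among them Mag (-0.44) and Mbp (-0.25). Of the mural cell and fibroblast markers 4 of 7 were called, 3 lower and 1 higher, and of the microglia markers 2 of 6, 1 in each direction. Among regional lists, 2 of 5 hindbrain genes (Slc6a5, -0.99, and Glra1, -0.58) and 2 of 4 olfactory bulb genes were called lower, 1 of 5 choroid plexus genes lower and 1 of 6 cerebellar genes, Cbln1 (0.52), higher. Cbln1 was not called without submissive female 3 (edgeR adjusted p = 0.0542), DESeq2 called 0 cerebellar genes, and without dominant male 1, whose cerebellar RNA is missing, its difference was 0.42 (edgeR adjusted p = 0.00133). Endothelial markers had 0 of 6 called by edgeR (1 at an unadjusted p under 0.05) and 0 by DESeq2, and the 1 pituitary gene tested was not called by either tool. Of all these lists, 1 hindbrain gene was at 0 in all 8 females, and no other marker was at 0 throughout a sex. Their part in the differences of the matrix genes was not tested.

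The cage comparison asks whether the mice of 1 cage resembled each other more than mice of other cages, with rank taken into account. In males Tnr was the member called, with an adjusted p of 0.00657 from edgeR's F test over the 7 cages, where 5.89% of 14737 genes were called. The dominant and the submissive male had 159 and 164 CPM in cage 1, 155 and 155 CPM in cage 2, 141 and 150.4 CPM in cage 3, and 141 and 166 CPM in cage 4. In cage 5 the values were 147 and 132 CPM, in cage 6 they were 99.97 and 115 CPM, and in cage 7 they were 124 and 136 CPM. Cage 6 was the low one in both of its mice, and without it the adjusted p rose to 0.176. The cage means spread with an SD of 18.4 CPM, against 9.67 CPM within cages. With the length trend removed at the counted exon length, Tnr was still called (edgeR adjusted p = 0.0182, with 3.47% of all genes called). Its longer GENCODE length was not tested. The summed neuron markers of cage 6 (3407 and 3464 CPM) and its summed precursor markers (289 and 286 CPM) lay within the range of the other males, as did 9 further marker lists. Its summed astrocyte markers (3218 and 3093 CPM, at most 3174 CPM in the other males) and its summed cerebellar markers (907 and 816 CPM, at most 906 CPM) were above that range in the dominant mouse. Single markers were also called by male cage in edgeR's F test, the precursor genes Gpr17 (adjusted p = 0.00284) and Cspg4 (0.0145), the endothelial Cldn5 (0.00265), the astrocyte gene Aldh1l1 (0.0370) and the neuronal Rbfox3 (0.0388). DESeq2 called 2 precursor, 2 neuron, 1 astrocyte, 1 endothelial and 1 parvalbumin interneuron marker. The part of these cells in the Tnr levels of the cages was not tested.

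Other members varied by cage without passing the test. Vcan (edgeR adjusted p = 0.0789) had 58.8 to 80.2 CPM in the mice of cages 1 to 4 and 51.5 to 57.9 CPM in those of cages 5 to 7. Sparcl1 (edgeR adjusted p = 0.128) showed the opposite order, with 2348 to 2518 CPM in cages 1 to 4 and 2586 to 2701 CPM in cages 5 to 7. The cages were split so after the values were seen, and the split was not tested. Sparc (edgeR adjusted p = 0.0796) had its lowest cage means in cages 1 (287 CPM) and 4 (297 CPM) and its highest in cage 7 (355 CPM). Vcan and Sparc were called in addition to Tnr by DESeq2 (adjusted p = 0.0101 and 0.00485; 6.53% of all genes called) and by edgeR without an expression filter (adjusted p = 0.0270 and 0.0271; 5.9% of all genes called). Leaving out cage 1, which holds the library without cerebellar RNA, added Vcan (edgeR adjusted p = 0.00618) and Hapln4 (edgeR adjusted p = 0.0398), while the share of all genes called rose to 12.5%. After the length trend was removed Vcan had an adjusted p of 0.880 from edgeR. Bcan differed least, with cage means of 132 to 140.0 CPM.

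In females 0 of the 10 genes differed between the 4 cages in edgeR's F test, where 0.074% of 14865 genes were called. DESeq2 called 0 members as well, and Tnc was the one with an unadjusted p under 0.05 (edgeR adjusted p = 0.971; 5.11% of all genes). Tnr means per cage ran from 102 to 108 CPM, while cage mates lay 5.52 to 20.3 CPM apart. The Tnc means ran from 13.8 CPM in cage 4 to 17.3 CPM in cage 3.

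**Figure D4:**
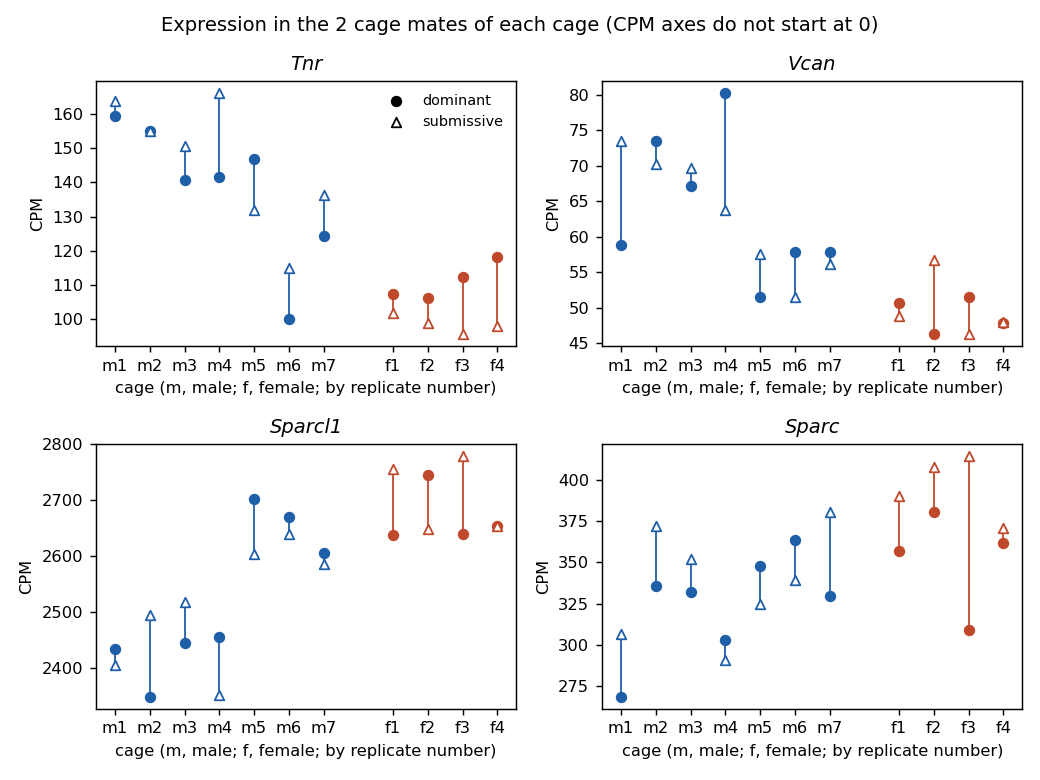
CPM of Tnr, Vcan, Sparcl1 and Sparc in the dominant (filled circle) and the submissive mouse (open triangle) of each cage, joined by a line; male cages in blue, female cages in red, and the axes do not start at 0. Tnr is lowest among males in cage 6, Vcan is lower and Sparcl1 higher in male cages 5 to 7, and in all 4 female cages Tnr is higher and Sparc lower in the dominant mouse.

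The rank comparison asks whether the genes differed between dominant and submissive mice. In females the largest differences were those of Sparc, lower in dominant mice, and Tnr, higher in them. Tnr had 107, 106, 112 and 118 CPM in dominant females 1 to 4 and 102, 98.8, 95.7 and 98.1 CPM in submissive females 1 to 4. The groups did not overlap, which was also so for 5.46% of all 14865 genes. The dominant female was higher in 4 of 4 cages, by 5.52 and 7.34 CPM in cages 1 and 2 and by 16.6 and 20.3 CPM in the groups named Gr1 and Gr2. The log2 difference (dominant minus submissive) was 0.16 with a standard error of 0.0381.

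Sparc had 357, 381, 309 and 362 CPM in dominant and 390.2, 408, 415 and 371 CPM in submissive females. It was lower in the dominant mouse of all 4 cages, with differences (dominant minus submissive) of -8.67 to -106 CPM, but the groups overlapped, since dominant female 2 lay above submissive female 4. The log2 difference was -0.18 (standard error 0.0495), and -0.12 without dominant female 3. Hapln1 had 34.4, 35.4, 32.2 and 32.6 CPM in dominant and 31.1, 31.5, 32.0 and 27.4 CPM in submissive females, again without overlap. Its log2 difference was 0.14 (standard error 0.0582), or 0.09 without submissive female 4. The dominant mouse was higher in 4 of 4 cages. How many of all genes keep the same direction in all 4 female cages was not counted. Ncan (0.12 ± 0.0466, standard error) and Acan (0.16 ± 0.125) were higher in dominant females with overlapping groups. Ncan came to 0.08 without dominant female 4, and Acan to 0.29, 0.10 and 0.09 without submissive female 2, 3 and 4 in turn. Tnc (0.04), Bcan (-0.00296), Hapln4 (-0.01), Sparcl1 (-0.03) and Vcan (-0.03) differed by no more than their standard errors.

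As a count, edgeR called 0 of the 10 genes in this contrast and 0.0942% of all genes, and 4 members had an unadjusted p under 0.05, as did 10.5% of all genes. DESeq2 called Tnr (0.518% of all genes), and edgeR without an expression filter called Tnr and Sparc (0.424% of all genes). Nothing is drawn from these counts, because Tnr was chosen on this contrast. Among the markers, 4 of the 5 choroid plexus genes had an unadjusted p under 0.05 (0 called by edgeR or DESeq2), where 10.5% of all genes had one, with a median log2 difference of -0.30, and that tissue's summed markers ran from 702 to 856 CPM in dominant and from 670 to 1013 CPM in submissive females. The olfactory bulb list had 2 of 4 genes at an unadjusted p under 0.05 (median -0.23), the precursor list 2 of 6 (median 0.03), the parvalbumin and neuron lists 1 each and the pituitary list its 1 tested gene (-0.83); the other 7 lists had 0, and DESeq2 called 0 in all 13. The part of these tissues in the differences of the matrix genes was not tested. Without submissive female 3, the library with pituitary RNA, Tnr had a log2 difference of 0.15.

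In males edgeR called 0 of the 10 genes and 0 of 14737 genes in all (0%); 0 members and 194 genes had an unadjusted p under 0.05, and DESeq2 also called 0 members and 0 genes. The ranges of the ranks overlapped for every member. Tnr had 99.97 to 159 CPM in dominant males (median 141) and 115 to 166 CPM in submissive males (median 150.4), and a log2 difference of -0.07 (standard error 0.0936, edgeR adjusted p = 1.00). The dominant male was higher in 2 of 7 cages. The largest difference was that of Tnc at -0.15 (standard error 0.0891, edgeR adjusted p = 1.00), and Hapln4 followed at -0.10 (standard error 0.0726). Sparc had 268 to 364 CPM in dominant (median 332) and 291 to 381 CPM in submissive males (median 339), a log2 difference of -0.05 (standard error 0.0664). The remaining members lay between -0.05 (Ncan) and 0.03 (Acan). These values moved with single samples: Sparc came to -0.01 without dominant male 1, the library without cerebellar RNA, Tnr and Ncan to -0.0083 and -0.0094 without dominant male 6, and Hapln4 to -0.06 without submissive male 7. When each male was left out Tnr ran from -0.12, Ncan from -0.10, Hapln4 from -0.15 and Sparc from -0.09 to those values, with 0 members called in each fit. In counts simulated from these samples the test called 76.5% of genes given a log2 change of 0.4 and 9.5% of those given 0.2, so most differences of 0.2 would be missed in males. By rank in females it called 66% and 31.5% of genes given these changes.

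The rank difference in females minus that in males was 0.24 for Tnr (standard error 0.134), 0.20 for Tnc (standard error 0.151), 0.18 for Ncan (standard error 0.100), 0.13 for Hapln1 (standard error 0.0701), 0.13 for Acan (standard error 0.164), 0.10 for Hapln4 (standard error 0.109) and -0.12 for Sparc (standard error 0.103). The other 3 members lay between -0.04 (Vcan) and 0.02 (Bcan). Without dominant female 3 the value was 0.08 for Tnc and -0.06 for Sparc, and without submissive female 4 it was 0.08 for Hapln1. When each sample was left out Acan ran from 0.06 (without submissive female 4) to 0.27 (without submissive female 2), and Hapln4 from 0.04 to 0.14. The contrast holds the female difference on which Tnr was selected, and it is given without a test for the members. Over all 15233 genes 0 were called by edgeR (0%) and 0 by DESeq2, with 505 genes (3.32%) at an unadjusted p under 0.05 in edgeR. Of the choroid plexus markers 3 of 5 had such a p, with a list median of -0.40. The parvalbumin, precursor, olfactory bulb and pituitary lists had 1 each, and the other lists 0. The part of these tissues in the values of the members was not tested.

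Other genes of the matrix pathway were read from 8 lists with 82 genes that hold none of the 10 members, of which 80 were tested in the table comparison. There 35 were called, 16 higher and 19 lower in females, where 36.2% of all genes were called. Among other link proteins and chondroitin sulfate proteoglycans, 6 of 8 were called, 3 in each direction, with a median of -0.00304 for the list. The receptor-type phosphatase proteoglycan Ptprz1, a partner of tenascins, had a log2 difference of -0.50 (231 to 277 CPM in females, 281 to 422 CPM in males). Its ranges did not overlap, as in 6.11% of all genes. Cspg4 (NG2, a marker of oligodendrocyte precursors) had a log2 difference of -0.62. Spock3, a testican, was higher in females by 0.16. Of the enzymes that build chondroitin sulfate chains, 8 of 19 were called and 7 of them were higher in females, among them the synthase Chsy1 (0.25) and the sulfotransferases Chst12 (0.35) and Chst11 (0.22), with a list median of 0.02. The list of cell surface partners and receptors had 9 of 14 called, 7 lower, with a median of -0.11. Its adhesion molecules Ncam1 (-0.32) and Nrcam (-0.16) were lower, and the Nogo receptor Rtn4r (0.39) was higher; Nrcam was not called once the length trend was removed (edgeR adjusted p = 0.149).

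Matrix proteases had 6 of 14 called, 3 in each direction, with Mmp17 (0.35) and Mmp15 (0.25) higher and the membrane protease Mmp14 (-0.21) lower in females. Genes of hyaluronan synthesis, breakdown and binding had 2 of 9 called, the receptor Cd44 (-0.31) and the synthase Has3 (-0.27), both lower; Has3 was not called without dominant female 3 (edgeR adjusted p = 0.0552) or submissive female 1 (0.0616), nor with the length trend removed (0.0752). Of the protease inhibitors, 1 of 5 was called, Reck (-0.30), and of the net-associated secreted proteins 1 of 6, the pentraxin Nptx1 (0.33; 149 to 189 CPM in males and 191 to 234 CPM in females). Other tenascins and SPARC relatives had 2 of 5 called, Smoc1 (-0.17) and Smoc2 (-0.18), both lower. With cage sums Smoc1 (edgeR adjusted p = 0.0530) and Smoc2 (0.0694) were not called. The call of Smoc2 was also lost without dominant male 1, submissive male 4, dominant female 4, submissive female 1 or submissive female 3, with edgeR adjusted p-values of 0.0509 to 0.0817, and without an expression filter (0.0588).

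By cage in males, 6 of 78 of these genes were called by edgeR, where 5.89% of all genes were: Cspg4 (adjusted p = 0.0145), Ptprz1 (0.0488), the chondroitin polymerizing factor Chpf (0.0235), Ncam1 (0.0311), the neurofascin gene Nfasc (0.0397) and the integrin subunit Itgav (0.0435). With the length trend removed 3 were called, Chpf, the sulfotransferase gene Chst11 and the contactin gene Cntn1, and none of Cspg4, Ptprz1, Ncam1, Nfasc and Itgav was among them. When 1 cage was left out, the calls of Ptprz1 (without cage 2, 3, 5, 6 or 7), Itgav (3, 4, 5, 6 or 7), Nfasc (2, 3, 6 or 7), Ncam1 (3, 6 or 7) and Chpf (7) were lost, with edgeR adjusted p-values of up to 0.141, 0.233, 0.410, 0.291 and 0.136 in that order. Without cage 1, which holds the library without cerebellar RNA, 11 were called (12.5% of all genes), the 6 and in addition Tmem2, Cspg5, B3gat3, Xylt1 and Rtn4r, which are named after their values were seen. Between the female cages 0 of 80 were called, with 7 at an unadjusted p under 0.05 (5.11% of all genes), and 0 by DESeq2. By rank 0 of 78 were called in males (0 at an unadjusted p under 0.05, 0 by DESeq2) and 0 of 80 in females (8 at an unadjusted p under 0.05, against 10.5% of all genes, and 1 by DESeq2). The one DESeq2 called was Nfasc, a partner of tenascin-R at the axon initial segment and nodes, with a log2 difference of 0.17 (standard error 0.0351, edgeR adjusted p = 0.0747). In the rank by sex contrast 0 of 80 were called by either tool.

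The genes most like each member were ranked over 22 samples by Pearson's r of the deviations of log2 CPM from the group means, among 15232 other genes. Cage mates and library features such as depth are shared by these points, and the r values are a description. Nearest to Tnr were Sema5a (r = 0.958), Map1b (0.951) and Lrp1 (0.943), of which 2 were also among the 3 nearest over the 14 males. Ncan was nearest to Grin1 (0.925), Nol6 (0.898) and Mapk10 (0.896), and all 3 were also its nearest in males. For Tnc, Acan, Hapln4, Sparc and Sparcl1 1 of the 3 was also among the 3 nearest in males, and for Vcan 0. Vcan was nearest to Psme4 (0.937), Trip11 (0.937) and Rock1 (0.934), and Sparcl1 to Rtcb (0.937), Atp5o (0.925) and Mlc1 (0.922). For Sparc they were Nefh (0.882), Galnt10 (0.860) and Mobp (0.857), for Tnc Ccdc28b (0.859), Ror1 (0.849) and Fbxl22 (0.841), and for Hapln4 Scrt1 (0.846), Kcna6 (0.836) and Camk2n2 (0.834). Acan had Nus1 (0.832), Zbtb16 (0.830) and Usp32 (0.814). The nearest genes of Hapln1 (Lsm3, 0.728, Uchl5, 0.721, and Zfp367, 0.714) and Bcan (Frmpd3, 0.716, Bivm, 0.716, and Ormdl1, 0.714) were less alike, and none of them was among the 3 nearest over the males. No member was among the 3 nearest genes of another.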

How the data were processed

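RNA of the right hemisphere of 22 mice was sequenced by the authors on an Illumina NextSeq from stranded libraries depleted of ribosomal RNA. Adapters were cut with cutadapt 1.15, low-quality bases with bbduk, and alignment to mm10 used STAR 2.6.0a. The deposited values are raw counts per gene from featureCounts 1.6.2, not normalized. The strand setting and the treatment of reads with several map positions are not given in the sources used here. Counts were scaled with TMM and tested with the quasi-likelihood test of edgeR 4.0.16 (R 4.3.3) after its expression filter (minimum count 10, minimum total 15), with Benjamini-Hochberg adjustment over all genes kept and a threshold of 0.05. Log2 CPM used a prior count of 2. Rank was tested within each sex, cage within each sex with rank as a term, and the tables over all 22 samples with 4 group means. Genes of the lists were named by a rule, at most the 3 with the smallest p among those called, or otherwise at most the 1 with the smallest p. The 10 members, the 8 pathway lists and the 13 marker lists were chosen with earlier results of these data known.

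The replicate numbers pair the samples, because same-numbered mice shared a cage and the paper states that cage mates were sacrificed together. Across genes, the deviations of cage mates from the means of their groups correlated on average at 0.157 in males (-0.0259 to 0.240), against -0.0261 for mice of other cages, and at 0.0211 in females, against -0.00703. Separate animals are compared, so p-values measure the spread between mice. Alternatives were DESeq2 1.42.0, its size factors in edgeR, no expression filter, removal of each sample's loess trend of log2 counts on exon length (span 0.3), the replicate block with and without that, all 22 samples in 1 fit, and leaving out each sample or cage. Counts summed per cage, for the tables, were added after seeing the data. The tests were tested on simulated data, whose noise included the spread between cages and whose cage mates were drawn as independent. The recovery by cage therefore need not hold for the real counts. Of 200 genes given a log2 change of 0.4, 82.5% were recovered between the tables, 37.5% by cage in males and 66% by rank in females. With a change of 0.2, 0.5% were recovered by cage in males.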

Additional observations from a re-analysis of the deposited data

Results flagged for a closer look

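In dominant females Sparcl1 was 2744.9 CPM in replicate 2 and 2637 to 2653 CPM in the other 3, a gap of 0.848 of the group's range, above the 95% critical value of Dixon's test for 4 samples. This was 1 of 40 groups of samples tested (10 genes in 4 groups), and chance alone flags about 1 in 20. The cage mate, submissive female 2, had 2648 CPM.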

How the results depend on the processing

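For the 10 matrix genes, DESeq2's size factors in edgeR changed no direction and no call. The replicate block (cage as a term) called 0 members by rank in either sex, as without it, and gave Tnr 0.16 in females; over all genes it raised the calls in females from 14 to 36, against 77 with DESeq2, 84 without an expression filter, 8 with the block and the length trend removed, and 0 with the length trend removed or with all 22 samples in 1 fit. When each female was left out these calls ran from 0 (without submissive female 1 or 3) to 77 (without dominant female 2). By rank in females, the contrast on which Tnr was chosen and from which nothing is drawn, DESeq2 called 1 member and edgeR without an expression filter 2, and 0 to 1 were called when each female was left out in turn (1 without dominant female 2). By cage in males, 3 members were called by DESeq2 and 3 without an expression filter in place of 1, and 0 to 3 when each cage was left out, with 0 without cage 6 and 3 without cage 1. Over all genes the cage calls were 868, 511 with the length trend removed and 375 to 1841 when a cage was left out. In female cages they were 11, 5 with DESeq2 and 99 without an expression filter. When a female cage was left out they ran from 2 (without cage 3) to 31 (without cage 2). Of the other matrix genes, 6 were called by male cage, 3 with the length trend removed and 1 to 11 when a cage was left out.

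Reversed directions concerned small differences that were not called. In females these were Tnc by rank (-0.0047 with the length trend removed, -0.010 with the block as well, and -0.074 to 0.12 when each female was left out), Bcan (0.0046 with all 22 samples in 1 fit, -0.032 to 0.017 when each was left out), Vcan (-0.066 to 0.032), Hapln4 (-0.064 to 0.025) and the SPARC relative Fstl1 (-0.11 to 0.0077). In males, leaving out each sample gave -0.024 to 0.081 for Acan, -0.040 to 0.0040 for Bcan, -0.050 to 0.057 for Vcan, -0.0061 to 0.028 for Hapln1 and -0.014 to 0.020 for Sparcl1. The rank by sex contrast ran from -0.0093 to 0.044 for Bcan and from -0.083 to 0.030 for Vcan. The cause of these changes was not tested. When each sample was left out, 8 to 10 members were called between the tables. With the same counts divided by GENCODE exon lengths the mean levels of Sparcl1 (878 RPKM), Sparc (91.7), Bcan (32.3), Tnr (9.98) and Hapln1 (5.74) moved by more than their SD. Tnr then took position 6 in the order of levels, below Ncan (4) and Hapln4 (5). DESeq2's size factors kept every position in that order. Depth limits Acan most, at 77 to 128 reads per sample.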

Other observations

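For neighbouring members the differences between the tables were as follows. Hapln4 and Ncan, 2222 bases apart on chromosome 8, had log2 differences (females minus males) of 0.13 and -0.13, and Hapln1 and Vcan, 43477 bases apart on chromosome 13, had -0.12 and -0.36. Neither pair was tested for a difference between its genes.

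The ratio of Tnr to Ncan per exon length, which does not depend on the scaling of a library, was 1.068 to 1.40 in the 14 males and 0.953 to 1.065 in the 8 females, so that the lowest male lay just above the highest female. The ratio of Tnr to Bcan was 0.496 to 0.896 in males and 0.536 to 0.660 in females, with overlap. The ratio of Tnr to Tnc overlapped too, at 6.11 to 12.9 in males and 7.78 to 12.2 in females. The ratio of Hapln1 to Hapln4 was 0.341 to 0.529 in males and 0.313 to 0.412 in females, with overlap. The ratio of Sparcl1 to Sparc was 5.68 to 7.69 in males and 5.50 to 7.25 in females. These ratios were chosen after the values were seen and were not tested.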
